A study of Sparus aurata with 5 samples.

Results

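The basal expression of tight-junction and immune-related genes was described in the anterior intestine of 12 gilthead seabream (*Sparus aurata*) juveniles fed the control diet (CT), out of the 60 fish measured by real-time qPCR. All CT fish with qPCR values were included. All 14 targets of the panel, comprising 7 claudins, 3 occludins and 4 immune-related genes, were described in them. CT was made without microalgae, whereas LB-GREENboost was added at 0.5% (GB5) or 1% (GB10) and LB-GUThealth at 0.5% (GH5) or 1% (GH10), both of them microalgae-based ingredients. Each of the 5 diets was given to 3 tanks and 4 fish per tank were taken, so that 48 supplemented fish were available for comparison. The files do not give the tank of a fish, and fish were therefore taken as the replicates.

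Tight junctions seal the space between neighbouring epithelial cells and set which ions and solutes cross it. Claudins form the strands of the junction. In mammals claudin-3 and claudin-4 are known mainly as sealing members and claudin-15 as a pore for small cations in the intestine, and occludin is a further membrane protein of the junction. Beneath the epithelium of teleosts lie B cells that make IgM, T helper cells that carry CD4, and cells that sense microbial DNA through the endosomal receptor TLR9 or release the anti-inflammatory cytokine IL-10. No gene of the panel defines the anterior intestine, so that the tissue label could not be checked against a marker. In whole tissue, a lower level of a gene can come from fewer cells that express it or from less transcript per cell, and these cannot be told apart.

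Abundance was expressed as the quantification cycle of the target minus that of eef1a, a translation elongation factor and the reference gene, in the same fish (ΔCT). A lower ΔCT corresponds to more template, and where each cycle doubles the template, 1 cycle less means 2-fold more of it. Of the 168 cells of the 14 targets in control fish, 166 hold a cycle and 2 are empty, both of il10 (fish 7 and 10). In 4 control fish (fish 9 to 12) the listed igm cycle is equal to that of cldn15, and these were taken as missing, which left 162 cycles. The same rows of the list are equal in every diet, in 20 of 60 fish. The deposited ratios of the occludins follow from a second list of eef1a cycles, so that the order of their fish is uncertain. The 3 occludins were therefore described by raw cycles only, and 126 cycles of the other 11 targets were normalised.

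Claudin transcripts stood at both ends of the order in the control intestine. The lowest ΔCT belonged to cldn15 (5.52 ± 0.285, SD, n = 12), followed by cldn7b (5.67 ± 0.595, n = 12) and cldn4l (6.04 ± 0.461, n = 12), named claudin-4-like by the authors. The immunoglobulin heavy chain gene igm stood next to them (6.42 ± 0.664, n = 8). The order continued with cldn5 (9.31 ± 0.638, n = 12), which in mammals is the main claudin of endothelium, and with cd4 (10.13 ± 0.465, n = 12). Towards the bottom stood il10 (11.08 ± 1.47, n = 10), cldn24 (11.61 ± 1.21, n = 12), cldn3 (12.70 ± 2.32, n = 12), tlr9 (12.90 ± 1.16, n = 12) and cldn4 (13.91 ± 1.46, n = 12). Claudins thus held the first 3 places and the last place among the 11 targets, of which 7 are claudins.

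In fish 1 to 12 in turn, the ΔCT of cldn15 was 5.89, 5.50, 5.64, 5.69, 5.51, 5.41, 5.54, 5.19, 4.96, 5.37, 6.03 and 5.56. The whole range was 1.07 cycles, or 2.09-fold if the template doubles. For cldn4 it was 14.43, 14.44, 13.89, 13.64, 15.45, 9.92, 12.71, 14.56, 13.65, 14.13, 15.04 and 15.08 in the same fish. The lowest cldn4 value, 9.92 in fish 6, lay above the highest cldn15 value, 6.03 in fish 11, and the values of the 2 claudins did not overlap. They were taken as the ends of the order in these same fish, which makes such a gap likely. It was not particular to them. No value of cldn15, cldn7b, cldn4l or igm exceeded 7.19, and no value of the other ranked targets was under 8.24. The igm values here are those of fish 1 to 8. Taken from the deposited ratio, igm was 7.51 in fish 10 and 7.86 in fish 11, which narrows this gap.

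**Figure D1:**
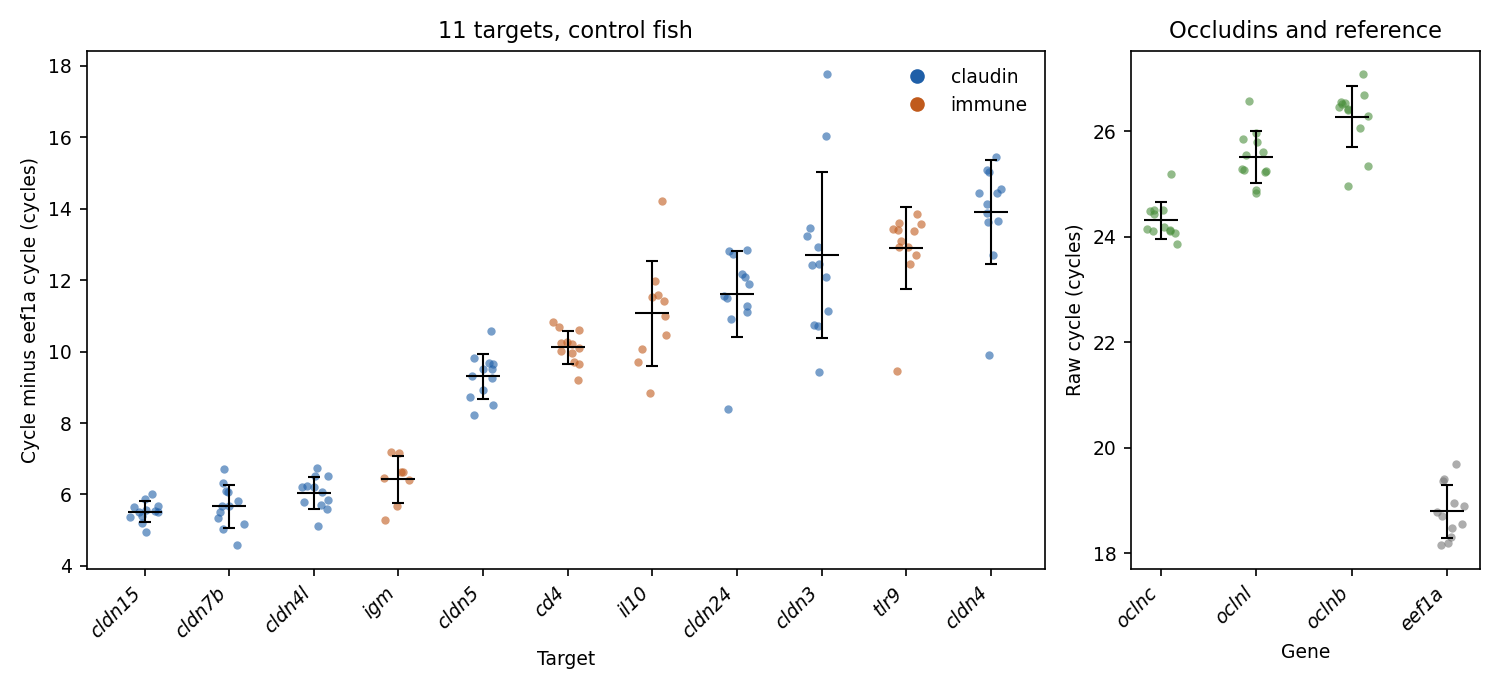
Quantification cycle minus the eef1a cycle (cycles, left) of 11 targets in control fish, and raw cycle (cycles, right) of the 3 occludins and eef1a. Each point is a fish (n = 12; 8 for igm and 10 for il10), and bars are the mean and SD. A lower value is more template, with cldn15 lowest at 5.52 and cldn4 highest at 13.91.

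Neighbours in the order were compared within fish (two-sided exact sign-flip permutation test, Benjamini-Hochberg over the 10 neighbouring pairs). In this family 40% of the tested pairs (4 of 10) differed. The difference from cldn7b to cldn4l was 0.37 cycles and was seen in 9 of 12 fish (exact p = 0.0146, adjusted 0.0366). That step did not pass by the sign test (adjusted 0.292). Nor did it pass without fish 3, 5, 7, 8, 9, 10, 11 or 12, each left out alone (adjusted 0.0513 to 0.0732, exact sign-flip test). The widest step was from igm to cldn5, 3.04 cycles in 8 of 8 fish (exact p = 0.00781, adjusted 0.0260). From cldn5 to cd4 the step was 0.82 cycles in 11 of 12 fish (exact p = 0.00195, adjusted 0.0171). From tlr9, the receptor for microbial DNA, to cldn4 it was 1.01 cycles in 11 of 12 fish (exact p = 0.00342, adjusted 0.0171). Only neighbours were compared, so that these 4 steps do not sort the targets into groups of like abundance. For example, cd4 at 10.13 and tlr9 at 12.90 were not tested against each other. The order was taken from the same fish, which favours the direction of each step, and the p-values do not allow for this. Without fish 3, 5, 7 or 8 the count of steps that passed was 2.

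The other neighbours did not pass the adjusted threshold. The cldn15 and cldn7b values differed by 0.15 cycles, with cldn7b higher in 6 of 12 fish (exact p = 0.303, adjusted 0.379). The igm ΔCT was 0.30 cycles above that of cldn4l and higher in 5 of 8 fish (exact p = 0.344, adjusted 0.382). Between cd4 and il10 the step was 0.97 cycles in 9 of 10 fish (exact p = 0.0625, adjusted 0.125). Without fish 6 that step was 1.30 cycles and passed (exact p = 0.00391, adjusted 0.0195). From il10 to cldn24, cldn24 to cldn3 and cldn3 to tlr9 the steps were 0.58, 1.09 and 0.20 cycles, with adjusted values of 0.193, 0.126 and 0.719 (exact test). A p above the threshold does not show that the levels were equal, and the SD of the within-fish difference from cldn3 to tlr9 was 1.90 cycles.

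The order of cycles was nearly the same in the other diets, where each fish is independent of the control fish. The same primer pairs served all diets, so that this repeats the order of cycles and does not test it as one of transcript abundance. Of the 11 targets, 9 had the same rank in all 5 diets, and cldn3 and tlr9 exchanged places in GH5. In the 48 supplemented fish, 90% of the same 10 neighbouring steps (9 of 10) differed at an adjusted p under 0.05 (permutation test). The step from cldn15 to cldn7b, not resolved in control fish, was 0.27 cycles there and was seen in 35 of 47 fish (permutation p = 8.7e-04). The step from cldn3 to tlr9 was 0.32 cycles in 46 fish (permutation p = 0.157).

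The scale of the order between genes depends on the primer pairs. The authors accepted amplification efficiencies from 90 to 110% and did not give those of single pairs, and no correction for the length of the amplicon was made. With opposite ends of this window for both genes, the raw cycle could shift by 3.51 cycles at the mean of cldn15 and by 4.72 cycles at that of cldn4. Of the 91 pairs among the 14 targets, 40 keep their order under such a shift. The smallest difference kept was 3.79 cycles, and none of the 10 neighbouring steps is that large. The cDNA per reaction is given in the labels as 0.25 to 6.25 ng without the amount for each gene, a range worth 4.64 cycles. The order is hence one of cycles under the conditions of the assay.

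The occludins were among the targets with low raw cycles. The raw cycle of oclnc was 24.31 ± 0.344 (SD, n = 12), with a lowest, median and highest value of 23.86, 24.17 and 25.19. It was next to the 24.31 ± 0.382 of cldn15, and the means were the lowest of the 14 targets. The raw cycle of oclnl was 25.50 ± 0.488 (24.84, 25.42 and 26.56), and that of oclnb 26.27 ± 0.581 (24.97, 26.44 and 27.08). By raw cycle, oclnl and oclnb took places 6 and 7 of 14, between igm and cldn5. All 3 occludins thus lay above cldn5 in apparent abundance, with ranges of 2.51-fold for oclnc, 3.31-fold for oclnl and 4.32-fold for oclnb if the template doubles. The eef1a cycle itself ranged from 18.15 to 19.70 among control fish, 2.93-fold.

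Fish fed the same control diet differed far more in some transcripts than in others. The range was 2.09-fold for cldn15, 3.06-fold for cd4, 3.11-fold for cldn4l, 3.77-fold for igm, 4.39-fold for cldn7b and 5.06-fold for cldn5. It was 21.0-fold for tlr9, 21.7-fold for cldn24, 41.5-fold for il10 and 46.4-fold for cldn4. The widest range was that of cldn3, with 8.34 cycles or 324-fold. These ranges of ΔCT contain the eef1a cycle too. By raw cycle the range was narrower for cldn4l (1.81-fold), cldn7b (2.45-fold) and cldn5 (3.15-fold), but wider for igm (6.41-fold). For cldn15 and cd4 the raw range was 2.12-fold and 3.00-fold. For tlr9, cldn24, il10, cldn4 and cldn3 it was 26.2-fold, 23.1-fold, 34.8-fold, 83.3-fold and 272-fold. The part of the reference in these ranges was not tested. The wide ranges of tlr9, cldn24 and cldn4 rest largely on fish 6. Without it their SD was 0.427, 0.690 and 0.785 cycles, against 0.616 for cldn5 and 0.608 for cldn7b. For cldn3 and il10 it was still 2.18 and 1.32 cycles. The median distance of a fish from the median of the gene was 0.33 cycles for tlr9 and 0.41 for cldn7b. In fish 1 to 12 the ΔCT of cldn3 was 17.77, 12.42, 12.92, 13.23, 10.75, 9.43, 13.45, 16.05, 10.73, 11.13, 12.10 and 12.45. The high values were of fish 1 and 8 and the low values of fish 5, 6 and 9. The raw cldn3 cycle of fish 1, 36.07, was the only control cycle above 35, and a cycle that late rests on little template.

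For il10 the ΔCT was 14.21, 10.46, 10.07, 11.53, 11.42 and 8.83 in fish 1 to 6, 11.97 in fish 8, 9.70 in fish 9, 11.58 in fish 11 and 11.01 in fish 12. Fish 1 was 2.24 cycles above the next fish, and fish 6 was the lowest. Against these, the ΔCT of cldn4l was 6.52, 5.69, 6.52, 6.23, 5.78, 5.84, 6.21, 6.21, 5.11, 6.06, 6.75 and 5.59 in fish 1 to 12. No cldn4l value lay more than 0.48 cycles from the next one at either end. The igm ΔCT in fish 1 to 8 was 6.45, 7.15, 5.67, 5.28, 6.63, 6.40, 6.63 and 7.19. Fish 3 and 4 were the lowest for igm and fish 2 and 8 the highest.

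The deviation of each fish from the median of the gene was set against that of cldn15, the target with the smallest SD of ΔCT (two-sided exact sign-flip permutation test, Benjamini-Hochberg over 10 targets). Since cldn15 was chosen for its SD in the same 12 fish, all 10 differences had to point one way, and the p-values do not allow for this choice. By raw cycle the smallest SD of these 11 targets was that of cldn4l, 0.279 against 0.382 for cldn15, and within the supplemented diets cldn4l had 0.426 and cldn15 0.430. With this limit, 50% of the targets tested (5 of 10) were under the adjusted threshold. These were cldn24, il10 and cldn3 (adjusted 0.0130 each by the exact test), cldn4 (adjusted 0.0269) and cd4 (adjusted 0.0273). The cldn24 value was farther from its median than the cldn15 value in 11 of 12 fish, and the cd4 value in 10 of 12. For cldn4l, cldn7b, cldn5, tlr9 and igm the adjusted values were between 0.0537 and 0.0703 (exact test). The count was 0 without fish 3, 1 without fish 2, 2 without fish 5, 9 or 12, 3 without fish 6 and 9 without fish 11, so that the threshold divided the targets poorly at 12 fish. With the mean of the targets as the reference it was 0, and with igm of fish 9 to 12 taken from the deposited ratio it was 9.

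Targets of low abundance had the larger spread. Across the 11 targets the mean ΔCT and the SD had a Pearson r of 0.775 and a Spearman rho of 0.80, given as a description because the targets share fish, the reference and a pipeline. Without fish 6 the values were 0.450 and 0.464. In the supplemented fish, where the SD was taken within diets, they were 0.796 and 0.836. The SD of a target in control fish was close in rank to its SD within the supplemented diets (r = 0.877, rho = 0.882 over 11 targets). The SD of cldn3 was 2.32 in control and 1.59 in supplemented fish, and that of cldn15 was 0.285 and 0.430. A difference in spread between control and supplemented fish was detected in 0% of the targets (0 of 11, permutation test with Benjamini-Hochberg adjustment, and 0 of 11 unadjusted). The smallest p, for cldn15, was 0.149 (permutation test). The spread of the control fish was therefore not shown to be particular to the control diet.

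**Figure D2:**
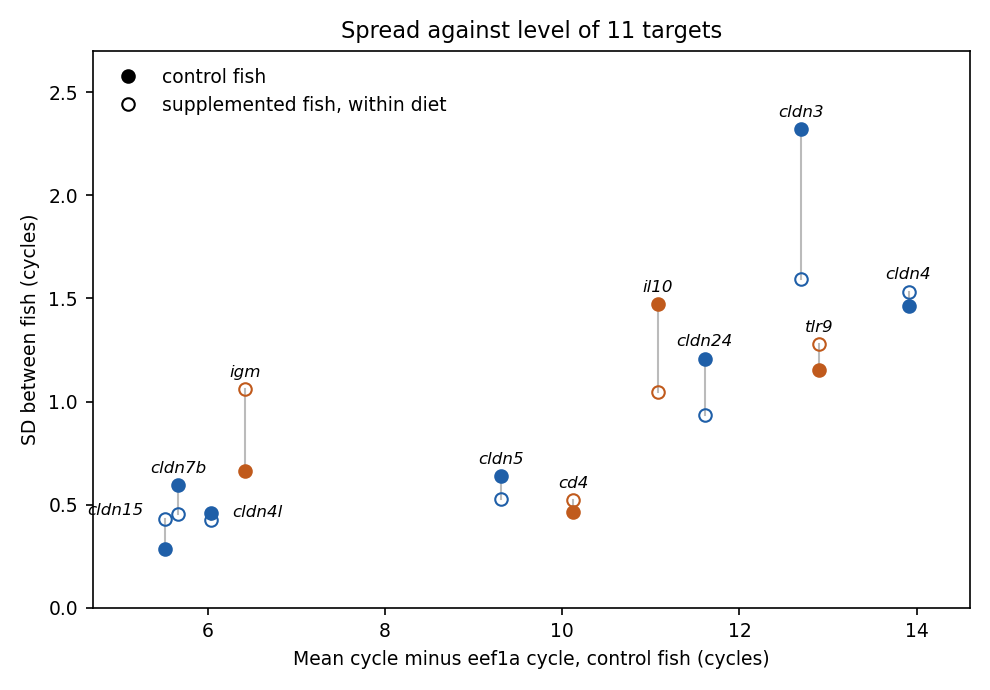
SD between fish (cycles, y axis) against the mean cycle minus the eef1a cycle in control fish (cycles, x axis) for 11 targets, with claudins in blue and immune-related genes in orange. Filled points are control fish and open points the SD within the 4 supplemented diets, at the control mean. The SD was 0.285 for cldn15 and 2.32 for cldn3 in control fish.

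A few fish carried the extremes. Fish 6 had the lowest ΔCT of cldn3, cldn4, cldn24, il10 and tlr9, that is, the most template of 5 targets, and the highest ΔCT of cd4. Its distance to the next fish was 2.80 cycles for cldn4, 2.53 for cldn24 and 2.99 for tlr9. By raw cycle, cldn3, cldn4, cldn24, il10 and tlr9 of fish 6 lay at 27.98, 28.47, 26.95, 27.385 and 28.025. The control medians of these targets were 31.2, 33.1, 30.6, 29.9 and 32.1. Why they lay closer together in fish 6 was not tested. Its eef1a cycle was 18.56, within the range of the other fish, and its igm ΔCT of 6.40 was near the median of 6.54. Without fish 6 the SD fell from 1.46 to 0.785 for cldn4, from 1.21 to 0.690 for cldn24 and from 1.16 to 0.427 for tlr9, whereas it was 2.18 for cldn3 and 1.32 for il10. The authors deposited no ratio for cldn24 and tlr9 of this fish, the only 2 control cycles of the panel without one, but gave a ratio for its cldn4.

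Fish 1 was at the opposite end for several of the same targets. It had the highest ΔCT of cldn3, cldn7b, cldn24, il10 and tlr9, although its cldn24 value of 12.84 was only 0.015 cycles above the next fish. Fish 9 had the lowest ΔCT of cldn15, cldn7b, cldn4l, cldn5 and cd4 and was below the median in all 10 targets measured in it. It also had the highest eef1a cycle of the 12 fish, 19.70, which enters each of these differences. By raw cycle fish 9 was not the lowest in any of these 5 targets. Its raw cldn15 cycle of 24.66 was above the median of 24.255, and its raw cldn7b cycle of 24.275 was below the median of 24.53. The part of the reference in the low values of fish 9 was not tested.

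**Figure D3:**
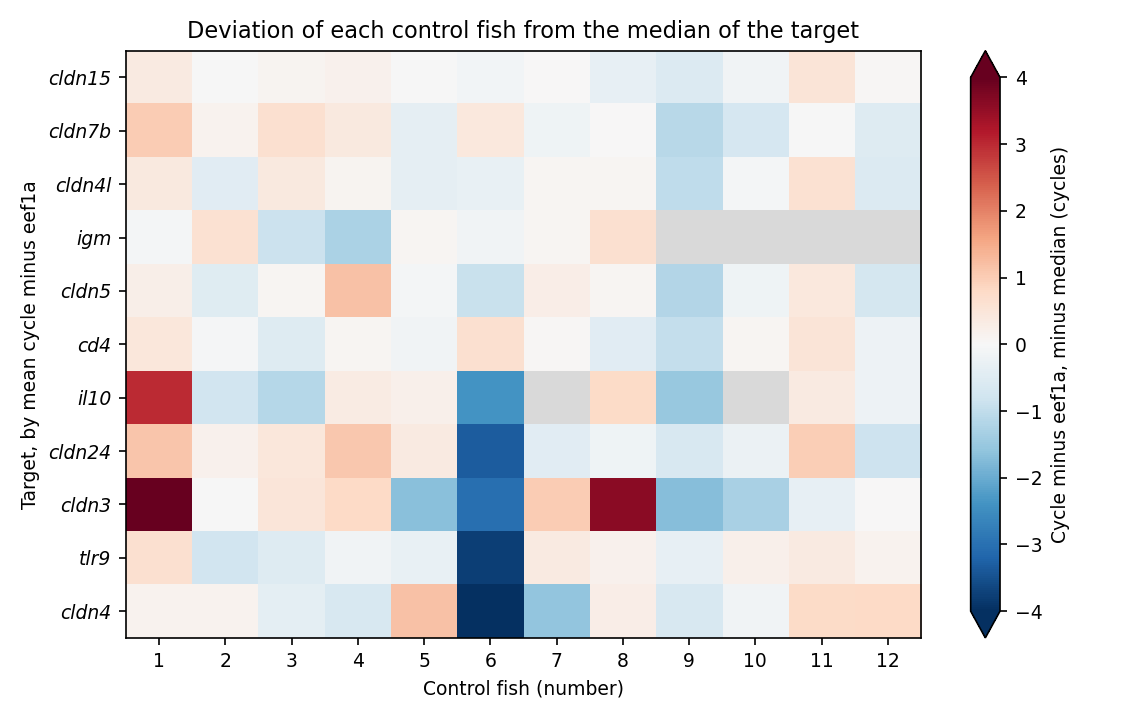
Cycle minus the eef1a cycle of each control fish (x axis, fish number), minus the median of the target (y axis, 11 targets in the order of their mean), in cycles. Blue is more template, red less, grey a missing cycle, and the scale ends at 4 cycles. Fish 6 was lowest in 5 targets and fish 1 highest in 5.

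The gene-to-gene relations were computed over control fish for the 55 pairs of the 11 targets (two-sided permutation test of Pearson r, Benjamini-Hochberg over 55 pairs). No pair passed the adjusted threshold (0%), and 1 pair did without fish 4, 5 or 8. At an unadjusted p under 0.05 there were 13 pairs (23.6%), and r was positive in all 13. The sign was positive in 44 of the 55 pairs, and the median r was 0.469. All pairs share the eef1a cycle of the fish. The median r was 0.412 with raw cycles, 0.407 with eef1a as a covariate and 0.0129 with the mean of the other targets as the reference. That mean was not scaled by gene, so that targets of wide spread weigh most in it. Subtracting it from 2 targets of small spread gives both a shared term, which by itself favours a positive r. The 6 pairs that passed with this reference were all among cldn4l, cldn5, cldn7b, cldn15 and cd4, and no firmer relation is read from them. By rank correlation 2 pairs passed the adjusted threshold, cldn4l with cldn5 and il10 with tlr9 (adjusted 0.0396 each, permutation test).

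The pairs were counted by gene family. Among the claudins 20 of 21 pairs had a positive r, with a median of 0.506 and 7 pairs under an unadjusted p of 0.05. Between claudins and immune-related genes 20 of 28 were positive, with a median of 0.352 and 5 such pairs. Among the immune-related genes 4 of 6 were positive, with a median of 0.0715 and 1 such pair. In supplemented fish 21 of 21, 26 of 28 and 6 of 6 of these pairs were positive, with medians of 0.330, 0.251 and 0.292. The difference between the families was not tested. The lowest r was that of cldn5 and igm, −0.579 over 8 fish (exact permutation p = 0.134), and igm had a negative r with cldn15, cldn4l, cldn7b, cldn24 and cd4 too. With raw cycles the sign of all 6 turned, with r = 0.105 for cldn5, 0.745 for cldn15, 0.650 for cldn4l, 0.643 for cd4, 0.412 for cldn7b and 0.0724 for cldn24.

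The 5 pairs with the smallest p were cldn3 with il10, cldn4l with cldn5, cldn4l with cldn15, cldn5 with cldn24 and cldn4l with cldn7b. For cldn3 and il10, a claudin and a cytokine, r was 0.851 (permutation p = 0.00199, adjusted 0.0785) and rho 0.733 (permutation p = 0.0199) over 10 fish. It was 0.803 with raw cycles and 0.842 with eef1a as a covariate. Without fish 6 r was 0.804 (exact permutation p = 0.00928), and without fish 1 it was 0.690 (exact permutation p = 0.0362). Without fish 1 and 6, the 2 fish farthest from the median of il10, r was 0.510 over 8 fish (exact permutation p = 0.196). The size of r thus depended on these 2 fish together. Leaving out the fish at both ends narrows the range of il10, which tends to lower r.

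The ΔCT of cldn5 was 9.65, 8.92, 9.50, 10.58, 9.33, 8.52, 9.68, 9.51, 8.24, 9.26, 9.82 and 8.72 in fish 1 to 12, and it was set against that of cldn4l. Fish 9 was the lowest in both genes. Over 12 fish r was 0.772 (permutation p = 0.00336, adjusted 0.0785) and rho 0.827 (permutation p = 0.00144). Without fish 9 and 11 r was 0.656 over 10 fish (permutation p = 0.0342). With raw cycles it was 0.501 (permutation p = 0.0942) and with eef1a as a covariate 0.496 (permutation p = 0.0998). With the mean of the other targets as the reference it was 0.812 (permutation p = 0.00180, adjusted 0.0253). The shared term of that reference favours such a value.

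For cldn4l and cldn15, r was 0.763 (permutation p = 0.00428, adjusted 0.0785) and rho 0.683 (permutation p = 0.0173). It was 0.400 without fish 9 and 11, again the fish at both ends of cldn15, 0.611 with raw cycles, 0.534 with eef1a as a covariate and 0.914 with the mean of the other targets as the reference (adjusted 0.0110, permutation test). For cldn5 and cldn24, r was 0.696 (permutation p = 0.0129, adjusted 0.146) and rho 0.741 (permutation p = 0.00789). It was 0.732 in raw cycles and 0.769 without fish 4 and 9, but 0.159 with the mean of the other targets as the reference (permutation p = 0.619). For cldn4l and cldn7b, r was 0.679 (permutation p = 0.0153, adjusted 0.146) and rho 0.602 (permutation p = 0.0417), with 0.380 without fish 1 and 9. With raw cycles this r was −0.00079, and with eef1a as a covariate −0.014, whereas it was 0.865 with the mean of the other targets as the reference (permutation p = 0.00461, adjusted 0.0423). The relation of these 2 claudins thus depended on the reference. The values of 0.914 and 0.865 both contain the shared term of the mean of the other targets.

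**Figure D4:**
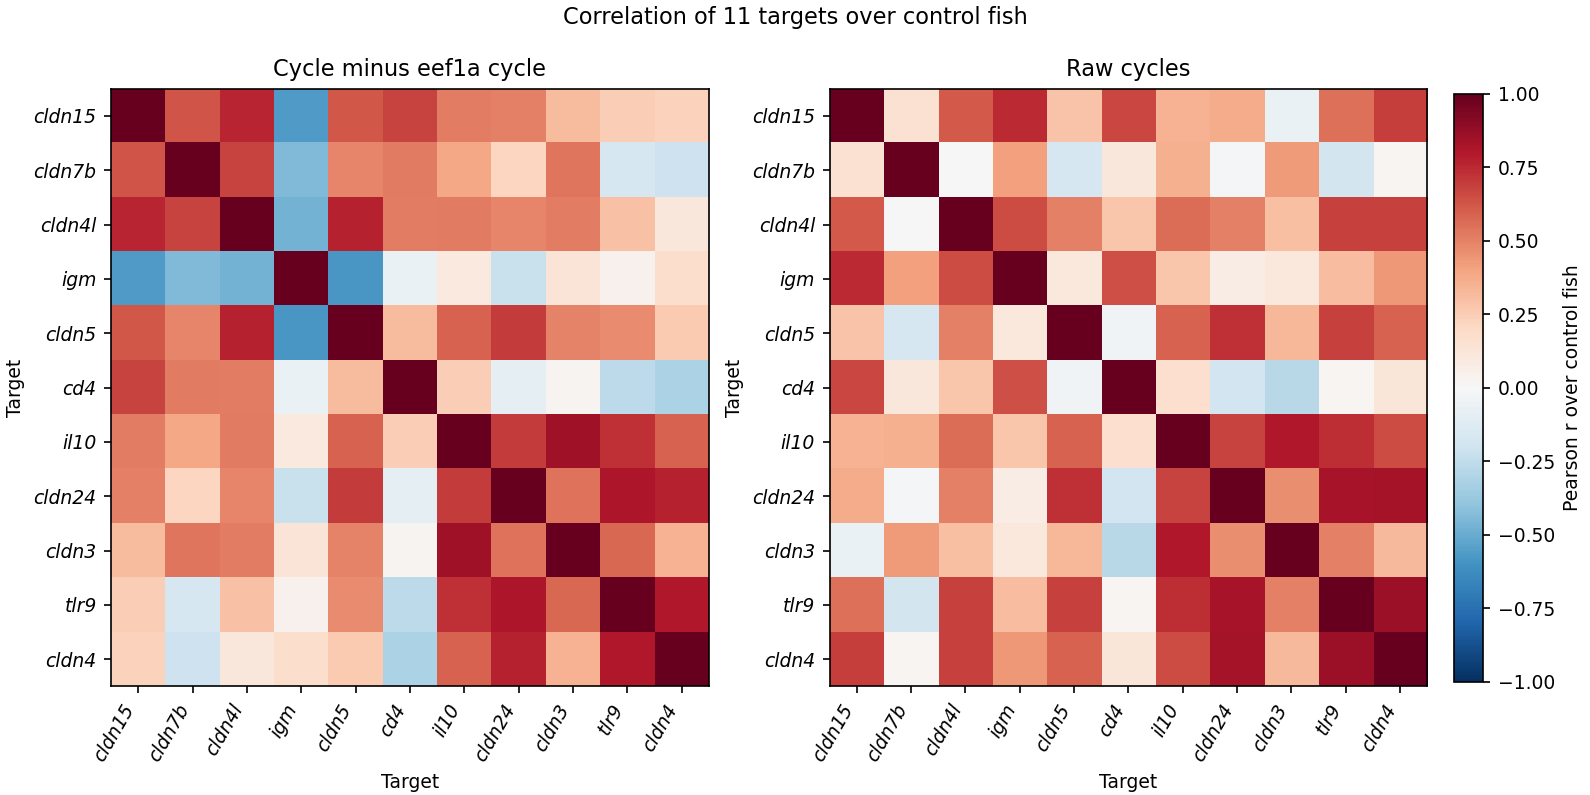
Pearson r over control fish between 11 targets (both axes, in the order of their mean level), from cycles minus the eef1a cycle (left) and from raw cycles (right). Red is a positive and blue a negative r, and pairs rest on 7 to 12 fish. The r of cldn3 and il10 was 0.851 and 0.803, that of cldn4l and cldn7b 0.679 and −0.00079.

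The same pairs were measured in the 48 supplemented fish, centred within diet. There 41.8% of all pairs (23 of 55) passed the adjusted threshold (permutation within diet, Benjamini-Hochberg over 55 pairs). Of the 13 pairs under an unadjusted p of 0.05 in control fish, 10 passed it. Of the 5 pairs with the smallest p in control fish, 4 passed: cldn4l with cldn5 (r = 0.576), cldn5 with cldn24 (r = 0.547), cldn4l with cldn7b (r = 0.426) and cldn4l with cldn15 (r = 0.420). With raw cycles or eef1a as a covariate 1 of these 5 pairs passed, cldn5 with cldn24. Of all 55 pairs in supplemented fish, 16 passed with raw cycles and 15 with eef1a as a covariate. Of the 13 pairs, 6 kept an unadjusted p under 0.05 in control fish with this covariate. The eef1a cycle is shared by the pairs in control and in supplemented fish alike. The count of 10 of 13 is therefore not read as a repeat that is free of the reference. The pair with the largest r in control fish, cldn3 with il10, had an r of 0.147 over 45 supplemented fish (permutation p = 0.358, adjusted 0.420). These 5 pairs were chosen by their p in control fish, which favours a higher r there, and r was higher in control than in supplemented fish in all 5. No difference between both groups of fish is read from them.

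A further set of 3 pairs was singled out after the values were seen, because fish 6 stood apart in all of them. In control fish r was 0.769 for cldn4 and cldn24, 0.804 for cldn4 and tlr9 and 0.805 for cldn24 and tlr9. Without fish 6 these were 0.174, 0.0010 and 0.105 over 11 fish, so that in control fish the relation of these targets rests on a single fish. The ranks gave rho values of 0.238, 0.252 and 0.378.

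In the supplemented fish the same 3 pairs had the largest r of all 55, namely 0.760, 0.854 and 0.791 over 48 fish. Each had a permutation p of 1e-05, the smallest that 100000 resamples can give, and an adjusted p of 0.000183. The rho values were 0.603, 0.680 and 0.617. Low fish were found in the other diets too. In fish 4 of GB5 the ΔCT of cldn3, cldn4, cldn24, il10 and tlr9 was 9.655, 10.025, 9.085, 8.315 and 9.09. In fish 11 of GH5 it was 10.755, 10.39, 9.415, 9.33 and 9.885. The source of the template in these low fish was not tested. The same fish was lowest in cldn4, cldn24 and tlr9 in CT, GB5 and GH5, in cldn4 and tlr9 in GB10, and in cldn4 and cldn24 in GH10. In CT the lowest fish was 4.37, 3.34 and 3.76 cycles below the median of cldn4, cldn24 and tlr9, and in GB5 3.80, 2.65 and 4.20 cycles. The 3 targets were singled out by their values in CT, so that CT is not a further case. Among the supplemented diets, a fish strictly lowest in all 3 targets was present in GB5 and GH5 but not in GB10 or GH10. In GB10 the fish lowest in cldn4 and tlr9, fish 6, was second in cldn24, at 10.135 against 9.985. In GH10 the fish lowest in cldn4 and cldn24, fish 2, was second in tlr9, at 10.34 against 10.145. The strict count thus does not show that GB10 and GH10 lack such fish. Each target has a lowest fish in every diet, and how often other sets of 3 targets share it was not tested. Over the supplemented fish, leaving out the cycles with no deposited ratio gave an r of 0.704 for cldn4 and tlr9 and 0.571 for cldn24 and tlr9, and both passed the adjusted threshold.

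**Figure D5:**
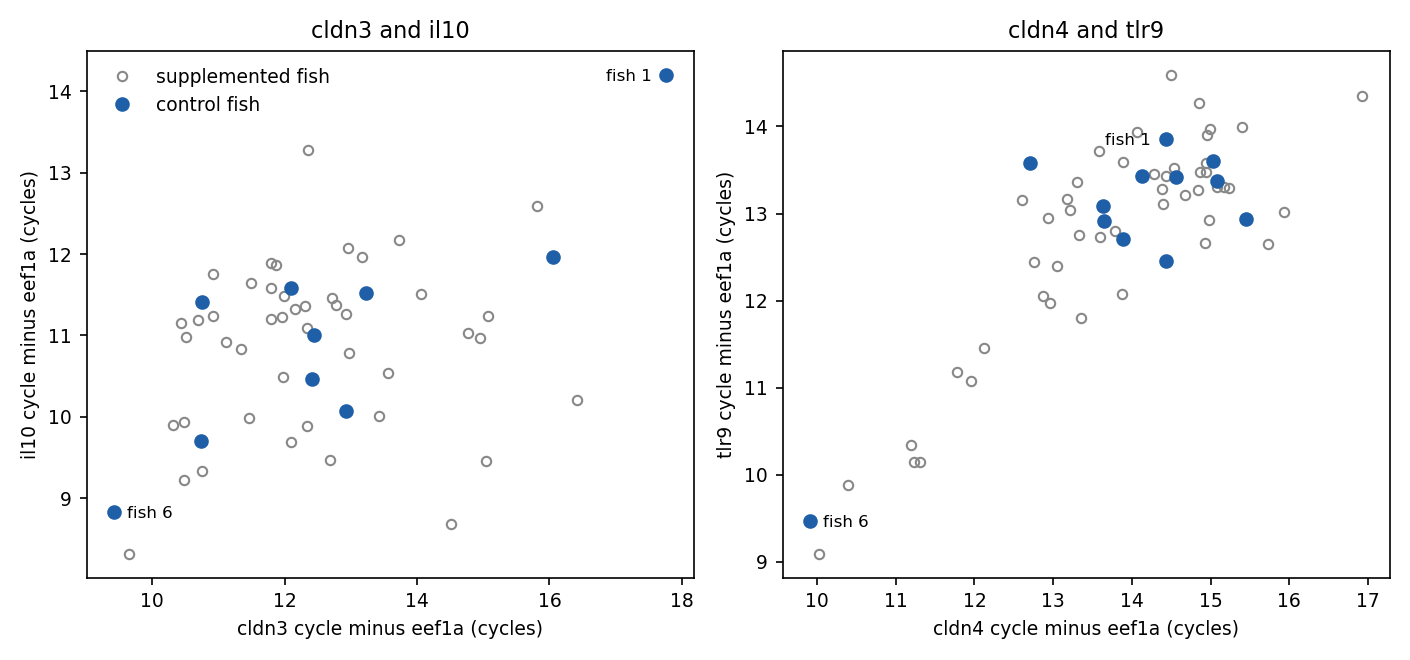
Cycle minus the eef1a cycle (cycles) of il10 against cldn3 (left) and of tlr9 against cldn4 (right), each point a fish, with control fish filled in blue and supplemented fish open in grey. Control r was 0.851 and 0.804, and supplemented r within diet 0.147 and 0.854. Control fish 6 lay at the low end of both panels.

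The receptor gene tlr9 was also set against il10. In control fish r was 0.734 (permutation p = 0.0357, adjusted 0.177) and rho 0.903 over 10 fish, and without fish 6 r was 0.797. Without fish 1 and 6 it was 0.672 over 8 fish (exact permutation p = 0.0731). With the mean of the other targets as the reference r was 0.302 (permutation p = 0.351). In supplemented fish r was 0.541 over 47 fish (adjusted 0.00160, permutation test). It was 0.248 there without the cycles that have no deposited ratio, and no longer passed (adjusted 0.185, permutation test). The relation of cd4 and il10, which was 0.250 in control fish, was 0.555 in supplemented fish (adjusted 0.000990, permutation test), and the difference was not tested.

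The raw cycle of each target was finally set against the eef1a cycle of the same fish. In 18.2% of the targets (2 of 11) the relation passed the adjusted threshold (two-sided permutation test, Benjamini-Hochberg over 11 targets). For cldn15 r was 0.822 (permutation p = 0.00130, adjusted 0.0123) and rho 0.788 (permutation p = 0.00343), and r was 0.773 without fish 5 and 9. For igm r was 0.902 over 8 fish (exact permutation p = 0.00223, adjusted 0.0123) and rho 0.929, and r was 0.961 without fish 4 and 5. The slope for igm was 2.13 cycles per cycle of eef1a. Without fish 3 igm did not pass (r = 0.879 over 7 fish, adjusted 0.0502, exact permutation test). When the igm cycles of fish 9 to 12 were taken from the deposited ratio, r fell to 0.434 over 12 fish (permutation p = 0.157). In supplemented fish r was 0.183 for cldn15 and 0.208 for igm. By rank 3 targets passed, with tlr9 as the third (rho = 0.720, permutation p = 0.00939), whose r was 0.439 (permutation p = 0.155).

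The raw cycles of the other abundant claudins did not pass this test. For cldn7b and cldn4l r was 0.0292 and 0.405 (adjusted 0.929 and 0.351, permutation test), and after normalisation the ΔCT had an r with the eef1a cycle of −0.819 and −0.834. For cldn5, cldn15 and cd4 these normalised values were −0.687, −0.646 and −0.562. The ΔCT contains the eef1a cycle with a negative sign, and these values are given as a description. For cldn3, cldn4, cldn24, il10 and tlr9, whose ranges were the widest, the normalised r lay between −0.367 and 0.254.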

How the data were processed

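RNA of the anterior intestine of single fish (500 ng) was made into cDNA, and EvaGreen qPCR was run in duplicate. The authors deposited quantification cycles, 1 per fish and gene, which are not normalised and are on a log2 scale when the template doubles in each cycle. All 178 control cycles (eef1a included) are multiples of 0.005. The authors also deposited the relative expression, a ratio by the ΔΔCT method (reference eef1a, calibrator the mean of control fish), after removing outliers with the ROUT method. In both tables gene names stand in the control column, which was therefore recorded under the unit other. The deposited fold-change table holds the comparisons of the authors between diets and was not used. How the cycles were read from the curves (software, threshold) is not given in the sources used here.

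Fish were grouped by diet from the labels. Target cycle minus eef1a cycle was computed in each fish, with empty cells and zeros as missing and no other filter. The ratios were used to find which eef1a list each gene follows (within 0.001 on the log2 scale) and for igm of 4 fish as an alternative. Permutation tests used 100000 resamples with a fixed seed and exact enumeration under 10 fish, and sign-flip tests within control fish were exact. The tests were two-sided and treat fish as independent. Their p-values may be too small if tanks differed. Relations needed at least 6 fish. The threshold was 0.05 after Benjamini-Hochberg adjustment over each family. The tests were tested on simulated data.

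All 14 targets are named, with the values of every fish for the most and least abundant, the widest and tightest, the genes of the 3 pairs with the smallest p, and igm. The members, lists and tests were chosen with earlier results of these data known. The alternatives were raw cycles, the mean of other targets as reference, eef1a as covariate, ranks or medians, opposite ends of the efficiency window, cycles with a ratio only, and leaving out each fish. The igm cycles from the ratio, and leaving out fish 1 and 6 together, were added after seeing the data. Of the 15 sequences listed for the primer pairs, 3 matched a RefSeq gene table, under other symbols than those of the authors. These were cldnb for cldn4, cldnk for cldn4l and LOC115572975 for oclnl. The names of the authors were kept. Computations were made in Python 3.11.15 (pandas 2.3.3, scipy 1.17.1, numpy 2.4.6) and figures with matplotlib 3.10.9.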

Additional observations from a re-analysis of the deposited data

Results flagged for a closer look

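The relation of cldn3 and il10 was listed for a closer look because its r differed between control and supplemented fish before adjustment (permutation p = 0.0386, adjusted 0.193). The difference was 1.11 on the scale of Fisher's z, with r = 0.851 over 10 control fish and 0.147 over 45 supplemented fish. The pair was chosen for the smallest p of 55 in the same control fish. That choice favours a higher r in control fish, the p does not allow for it, and no difference is read from it. The control value was 0.510 without fish 1 and 6. No fish stood far enough from the others in igm or il10 of control fish to be marked by Dixon's criterion, and the other targets have more than 10 fish and were not tested by it.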

How the results depend on the processing

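The steps between neighbours that passed numbered 4, and 0 at opposite ends of the efficiency window. Leaving out each control fish gave 2 to 5 (2 without fish 3, 5, 7 or 8). The targets under the threshold for more spread than the tightest target numbered 5. They were 5 with raw cycles (where cldn4l was tightest), 0 with the mean of the targets as reference (where cldn5 was tightest), 9 with igm of 4 fish from the ratio, and 0 to 9 without each fish. This count was 0 without fish 3, 1 without fish 2, 2 without fish 5, 9 or 12, 3 without fish 6 and 9 without fish 11. The relations that passed numbered 0, 6 with the mean of the other targets as reference, 2 by rank, and 0 to 1 without each fish (1 without fish 4, 5 or 8). The targets related to eef1a numbered 2, 3 by rank, 1 with igm from the ratio, and 1 to 2 without each fish (1 without fish 3). Of the 5 pairs set against supplemented fish 4 passed there, and 1 with raw cycles or with eef1a as a covariate. The spread differed between control and supplemented fish in 0 of 11 targets under every alternative run. The sign turned for cldn4l and cldn7b (−0.00079 with raw cycles, −0.014 with the covariate), for cldn24 and tlr9 (−0.156) and cldn4 and tlr9 (−0.038) without fish 1 and 6, and for cldn4l and cldn15 in supplemented fish (−0.040 with raw cycles, −0.083 with the covariate). The cause was not tested. Of the other values for single genes and pairs, 371 kept direction and side of the threshold, 9 passed it only under the alternative and 21 no longer passed it. The 371 are no measure of stability. They include neighbouring steps under another reference, which cancels within a fish, so that these could not change. They also include relations that passed under neither setting, such as cldn4 and tlr9, where r fell from 0.804 to 0.0010 without fish 6. No paired analysis was possible because each diet is a single sample in the labels and fish of different diets share no number that pairs them. Each value is 1 cycle per fish, so that the error of the duplicate wells is unknown.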
